A study of Homo sapiens and Mus musculus with 74 samples.

Results

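The genes described here are 9 genes of the distal nephron and collecting duct: Umod, Slc12a1, Slc12a3, Kcnj1, Aqp2, Aqp3, Scnn1a, Scnn1b and Scnn1g. They were chosen by name as known genes of these segments, out of 22484 mouse genes with a coding sequence in the annotation, and each was followed by its transcript with the longest protein. The libraries came from kidney and brain of male mice aged 10 weeks on a C57BL/6J background, either Rpl41+/+ (WT) or Rpl41-/- (KO), in which the whole Rpl41 coding sequence was removed from the germ line with CRISPR-Cas9. Each genotype and tissue had 3 libraries of RNA-seq and 3 of Ribo-seq, which sequences the mRNA fragments that single ribosomes protect (ribosome-protected fragments, RPF), and kidney also had 3 of disome-seq per genotype, which sequences the longer fragments protected by a pair of stacked ribosomes. Every cell of a KO mouse lacks Rpl41, so no segment of the kidney served as an unedited control. The replicates are called biological in the study and numbered in the labels, which do not name the mice, so p-values measure the spread between these libraries, which may be partly technical.

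The thick ascending limb reabsorbs salt without water, and its apical Na-K-2Cl cotransporter (NKCC2, from Slc12a1) works with a potassium channel that recycles potassium to the lumen (ROMK, from Kcnj1). The distal convoluted tubule takes up salt through the thiazide-sensitive Na-Cl cotransporter (NCC, from Slc12a3). Principal cells of the collecting duct then set the final sodium and water content of urine with the epithelial sodium channel (ENaC, from Scnn1a, Scnn1b and Scnn1g) and with aquaporin 2 and aquaporin 3, the apical and basolateral water channels. Umod encodes uromodulin, the protein that the thick ascending limb secretes most abundantly into urine.

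Library totals, as sums over transcripts in which 1 read can count several times, were 44998381 to 55077048 in kidney RNA-seq, 11036643 to 42452425 in kidney Ribo-seq and 1187636 to 3018963 in disome-seq. KO Ribo-seq libraries 2 and 3 were the deepest of the kidney Ribo-seq libraries. Rpl41 itself had 3695 to 7502 RNA reads in the WT kidney libraries and fell to between 3 and 8 reads in those labelled KO. Summed neuron markers lay at 0.331 to 0.739 CPM (reads scaled to a common library total) in kidney RNA-seq and at 1496 to 1906 CPM in brain, while 14 proximal tubule genes summed to 13749 to 22094 CPM in kidney and 45.0 to 48.1 CPM in brain. KO kidney RNA-seq libraries 2 and 3 stood apart in read position. Over 2206 genes with annotated partial transcripts on both sides, the median log2 ratio of reads on 5′ to 3′ partial transcripts was -3.09 and -2.95 in these libraries, against -2.62 to -1.73 in the other kidney RNA-seq libraries. The kidney RNA-seq reads therefore lay toward the 3′ end in all libraries, and most in those 2.

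Slc12a1 has a known splicing choice that the deposited transcript counts touch, because NKCC2 isoforms carry 1 of 3 alternative exons that encode part of the transport domain. In this annotation they are exon 5 of 3 coding transcripts and have 96 bases each. They are shown as the sequences that separate those transcripts, 5′ to 3′ on the plus strand of GRCm38, with capitals at every position where the 3 exons are not all the same.
Upstream exon, chr2:125165495-125165590: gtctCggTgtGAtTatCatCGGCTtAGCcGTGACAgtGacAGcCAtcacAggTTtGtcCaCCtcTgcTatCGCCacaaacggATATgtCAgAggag
Middle exon, chr2:125166123-125166218: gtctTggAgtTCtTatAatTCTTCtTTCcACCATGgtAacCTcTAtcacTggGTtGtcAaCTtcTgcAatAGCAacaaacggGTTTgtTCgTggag
Downstream exon, chr2:125166673-125166768: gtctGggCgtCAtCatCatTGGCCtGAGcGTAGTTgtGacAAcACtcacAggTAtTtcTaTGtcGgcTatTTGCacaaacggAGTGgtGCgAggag

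The 3 exons share 51 of 96 bases at the same position. Between pairs, the upstream and middle exons share 63 bases, the upstream and downstream exons 66, and the middle and downstream exons 56.

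In the mouse annotation (GENCODE M21, build GRCm38), Slc12a1 lies on the plus strand of chromosome 2 (125152505 to 125230002), and its transcript has 27 exons and encodes 1090 amino acids. Umod lies on the minus strand of chromosome 7 (119462713 to 119479255; 642 amino acids), and Kcnj1 on the plus strand of chromosome 9 (32393985 to 32399197; 392 amino acids). Slc12a3 lies on the plus strand of chromosome 8 (94329201 to 94366214) and encodes 1002 amino acids. Aqp2 is on the plus strand of chromosome 15 (99579055 to 99584547; 271 amino acids) and Aqp3 on the minus strand of chromosome 4 (41092722 to 41098183; 292 amino acids). Scnn1a is on the plus strand of chromosome 6 (125321340 to 125344943; 700 amino acids). Scnn1g (121734479 to 121768475; 655 amino acids) and Scnn1b (121865038 to 121918512; 638 amino acids) are neighbours on the plus strand of chromosome 7.

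In WT kidney, Umod had the highest level of the 9 genes and the ENaC subunits the lowest. Levels between genes were compared in TPM (reads per length, scaled to a common sum over 1 transcript per gene), with RNA reads per transcript length and footprints per coding length. Umod stood at 1863 ± 491 TPM of RNA (SD, n = 3) and 1487 ± 92.5 TPM of footprints (SD, n = 3), which ranked it 34th and 60th of all coding genes. In RNA Slc12a1 followed with 351 ± 46.6 TPM (SD), and its footprints stood at 298 ± 30.9 TPM (SD). Aqp2 (276 ± 48.8 TPM of RNA, SD) and Slc12a3 (242 ± 37.3 TPM, SD) came next, and the library ranges of Slc12a1 and Aqp2, and of Aqp2 and Slc12a3, overlapped. Kcnj1 (142 ± 0.326 TPM of RNA, SD) lay above every library of Aqp3 (83.2 ± 33.8 TPM, SD) and below every library of Slc12a3. In footprints the order from Aqp2 (349 ± 69.1 TPM, SD) through Slc12a1, Aqp3 (283 ± 33.8 TPM, SD) and Slc12a3 (277 ± 76.1 TPM, SD) was not separable, since the libraries of neighbours overlapped. Kcnj1 had 171 ± 16.6 TPM of footprints (SD), below every library of these 4 genes and above every library of Scnn1a.

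Among the ENaC subunits, the alpha subunit gene Scnn1a was highest in both assays. RNA levels were 38.2 ± 3.95 TPM for Scnn1a, 24.1 ± 2.76 TPM for the beta subunit gene Scnn1b and 11.4 ± 2.27 TPM for the gamma subunit gene Scnn1g (SD, n = 3), and the libraries of neighbours did not overlap. Footprint levels were 55.9 ± 8.97, 30.7 ± 6.44 and 23.4 ± 3.41 TPM (SD), and those of Scnn1b and Scnn1g overlapped. Using transcript length for footprints and coding length for RNA, the level of Umod became 1338 TPM of RNA and 2076 TPM of footprints, and the orders of the 3 subunits stayed as above.

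Footprints per RNA differed widely between the 9 genes in WT kidney. Kidney RNA reads lay toward the 3′ end, and the part of this in the RNA levels per length and in these ratios was not tested. Over 11727 genes with at least 10 reads in every WT library of both assays, the median log2 ratio of footprint to RNA TPM was 0.55. Umod (-0.33, at the 18.5th percentile) and Slc12a1 (-0.23, 20.8th) lay low, Scnn1a lay at the median (0.55, 49.8th), and Aqp3 lay high (1.77, 87.7th). With the lengths exchanged Umod moved to 0.63 and Slc12a1 to 0.54 (57.2th and 54.2th percentile), so their low positions depended on the length used. Aqp3 was at 1.60 (82.6th percentile), while Slc12a3 moved from 0.20 to 1.78 and Scnn1g from 1.03 to 1.67, both then above Aqp3.

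Disome reads took very unequal shares of these mRNAs. Over 5562 genes with enough reads, the median log2 ratio of disome to RPF CPM in WT kidney was -0.10. Slc12a3 stood at 1.15 (89.2th percentile), with 448, 543 and 424 CPM of disome reads against 206, 272 and 159 CPM of RPF in the WT libraries. Aqp2 stood at -2.43 (0.216th percentile), with 22.4, 9.29 and 8.36 CPM of disome reads against 84.0, 62.8 and 69.7 CPM of RPF. Kcnj1 (-1.09), Aqp3 (-1.06) and Umod (-1.04) also lay near the 10th percentile, and Slc12a1 (-0.07) and Scnn1a (-0.17) near the median. The disome count of Aqp2 was small, at 71, 30 and 10 reads, and Scnn1b and Scnn1g had too few disome reads to be placed.

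All 9 genes were higher in WT kidney than in WT brain in both assays (edgeR's quasi-likelihood test, adjusted p under 0.05). Of all genes tested, 38.3% were higher in kidney in RNA and 37.6% in RPF. The 9 were chosen by name as known genes of kidney segments, so this outcome was set by the choice and only checks the tissue labels. Umod had 0 RNA reads in every WT brain library, against 43657 to 56832 in WT kidney, which is at least 31139-fold higher at a floor of 3 counts per library. Kcnj1 had 0, 0 and 1 RNA reads in WT brain, a ratio of 25525 with a 95% interval of 4580 to 1008245 that covers counting error only. Slc12a1 (25 reads over the 3 libraries, ratio 3881, interval 2629 to 5997) and Aqp2 (9 reads, ratio 2527, interval 1331 to 5528) were also rare in brain. Scnn1a was the member found most in brain, with 94, 115 and 93 RNA reads in WT (1.07 ± 0.141 CPM, SD) and 35, 11 and 37 footprints. Its kidney level was 4.94 log2 units higher in RNA (standard error 0.20, adjusted p = 1.9e-08) and 4.37 in RPF (standard error 0.19, adjusted p = 7.6e-11), by edgeR. Every kidney library of all 9 genes lay above every brain library.

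The KO and WT kidneys were then compared to ask how loss of this ribosomal protein bore on these mRNAs. In bulk kidney, fewer cells of a segment and less RNA per cell cannot be told apart, so each value refers to the whole organ. Kidney RNA of the 9 genes did not pass the test in KO: 0 of 9 were called by edgeR and 0 by DESeq2, 1 had an unadjusted p under 0.05, and the background was 0.00719% of genes (1 of 13906, Rpl41). Among all genes 14.1% had an unadjusted p under 0.05, near the share of 1 in 9, and DESeq2 called 72. On the log2 scale the median change (log2FC, KO over WT) was -0.09 for the 9 genes and 0.10 for all coding genes. Scaling by library totals alone moved that median of all genes to -0.06 and that of the 9 genes to -0.26, so their distance from all genes stayed nearly the same.

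Kcnj1 RNA was the single member whose KO and WT libraries did not overlap, where 20.9% of genes tested did not overlap. It had 87.7, 94.3 and 79.7 CPM in WT and 71.7, 61.7 and 65.4 CPM in KO, with a log2FC of -0.40 (standard error, SE, 0.13; adjusted p = 0.29, edgeR). Umod RNA had 902, 831 and 1157 CPM in WT and 832, 630 and 767 CPM in KO, with a log2FC of -0.38 (SE 0.18, adjusted p = 0.31). Its groups overlapped by KO library 1. Slc12a1 RNA was 383, 317 and 295 CPM in WT and 295, 335 and 302 CPM in KO (log2FC -0.09, SE 0.15), and the groups overlapped. The other 6 genes had log2FC values of -0.32 (Scnn1g) to 0.24 (Aqp2), each with overlapping libraries. Without KO RNA-seq libraries 2 and 3, which leaves 1 KO library that is assumed to vary like WT, the signs of Slc12a3, Aqp2 and Scnn1g turned (-0.03, -0.06 and 0.03), and none of the 9 was called.

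Footprints gave a different picture. In kidney Ribo-seq 2 of 9 genes passed the test and both were higher in KO, Slc12a1 and Scnn1g, against 9.88% of genes called in either direction and 5.97% called higher. DESeq2 also called 2 of the 9, where it called 854 of all genes, and 7 had an unadjusted p under 0.05, as did 29.0% of all genes. The median log2FC was 0.39 for the 9 genes and -0.02 for all coding genes. In 6 of 9 genes all KO libraries exceeded all WT libraries and in 1, Aqp2, all were lower. Of all genes tested 33.0% did not overlap in either direction. By direction, 2305 of 13454 genes had all KO libraries above WT and 2137 had all below.

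Slc12a1 footprints had 254, 261 and 230 CPM in WT and 436, 456 and 428 CPM in KO. All KO libraries lay far above all WT libraries, and the spread within each group was small. The log2FC was 0.82 (SE 0.13, adjusted p = 0.006, edgeR), or 249 ± 16.3 CPM against 440 ± 14.3 CPM (SD, n = 3). It ranged from 0.75 to 0.86 over 14 alternatives, and passed in 12 of them. Without KO Ribo-seq library 3 it was 0.84 with an adjusted p of 0.052, and without libraries 2 and 3, a choice made after the data were seen, it was 0.81 with an adjusted p of 0.35.

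Scnn1g footprints had 11.9, 13.0 and 10.2 CPM in WT and 15.8, 16.9 and 16.4 CPM in KO. The groups did not overlap, and the log2FC was 0.48 (SE 0.11, adjusted p = 0.023, edgeR). This call was lost in 6 of 14 alternatives, among them library totals alone (adjusted p = 0.066), counts summed per gene (adjusted p = 0.063), and leaving out WT library 1 (adjusted p = 0.067), KO library 2 (adjusted p = 0.11) or KO library 3 (adjusted p = 0.10). The partner subunit Scnn1b had 15.1, 17.8 and 12.0 CPM in WT and 19.2, 19.9 and 22.5 CPM in KO, a log2FC of 0.46 (SE 0.13) that just missed the threshold (adjusted p = 0.054). Without WT library 2 it was 0.59 with an adjusted p of 0.040. Scnn1a, at 27.5, 35.7 and 26.9 CPM in WT and 26.5, 35.9 and 34.2 CPM in KO, had overlapping groups and a log2FC of 0.12 (SE 0.14, adjusted p = 0.64).

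Uromodulin and the thiazide-sensitive cotransporter did not pass the test, although their libraries did not overlap. Umod had 697, 784 and 715 CPM of footprints in WT and 1121, 882 and 876 CPM in KO, with KO library 1 above the others (log2FC 0.39, SE 0.16, adjusted p = 0.15). Slc12a3 had 206, 272 and 159 CPM in WT and 276, 296 and 279 CPM in KO, where WT library 2 came within a few CPM of the lowest KO library (log2FC 0.42, SE 0.17, adjusted p = 0.15). Kcnj1, whose channel works with NKCC2 in the thick ascending limb, had 49.8, 56.2 and 48.0 CPM in WT and 49.8, 51.4 and 49.5 CPM in KO (log2FC -0.03, SE 0.11).

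The KO footprints of the water channels lay on opposite sides of WT. Aqp2 had 84.0, 62.8 and 69.7 CPM in WT and 57.1, 54.2 and 60.4 CPM in KO, so every KO library lay below (log2FC -0.34, SE 0.12, adjusted p = 0.11, edgeR). Aqp3 had 66.2, 55.9 and 68.0 CPM in WT and 82.3, 76.4 and 79.4 CPM in KO, so every KO library lay above (log2FC 0.32, SE 0.11, adjusted p = 0.099). Neither passed the test.

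Ratios between 2 genes within a library do not depend on how libraries were scaled, and 7 pairs, chosen after the values were seen, were computed per length in each assay. The Aqp3 to Aqp2 footprint ratio was 0.732, 0.826 and 0.905 in WT and 1.34, 1.31 and 1.22 in KO. The Slc12a1 to Kcnj1 footprint ratio was 1.84, 1.67 and 1.73 in WT and 3.15, 3.19 and 3.11 in KO, and in RNA it was 2.47 ± 0.334 against 3.07 ± 0.431 (SD, n = 3) with overlapping libraries. The Scnn1a to Scnn1g footprint ratio was lower in every KO library, at 2.40 ± 0.210 in WT and 1.83 ± 0.231 in KO (SD), and Scnn1a to Scnn1b likewise, at 1.84 ± 0.189 and 1.43 ± 0.198. The Scnn1b to Scnn1g ratio, at 1.30 ± 0.0980 and 1.28 ± 0.106 (SD), overlapped. In RNA all 7 ratios overlapped between genotypes. With 3 libraries against 3, an exact two-sided permutation test cannot give a p below 0.1, so none of these ratios could pass.

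**Figure D1:**
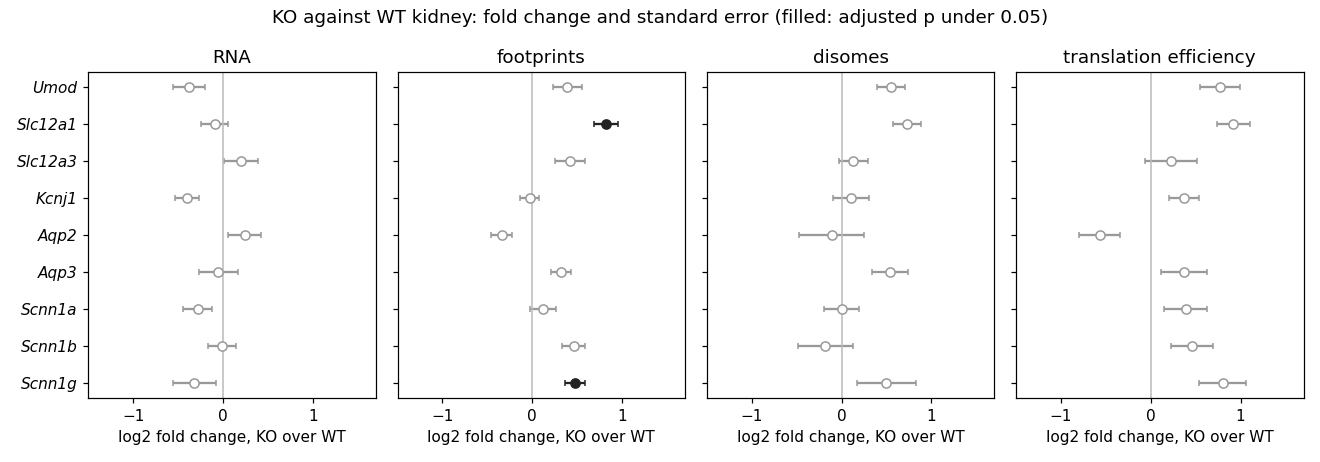
Log2 fold change of KO over WT kidney for the 9 genes in RNA, footprints, disomes and translation efficiency, with bars of 1 SE and filled points where the adjusted p was under 0.05. Slc12a1 (0.82) and Scnn1g (0.48) were the filled points, both in footprints.

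Translation efficiency (TE), the change in footprints beyond that in RNA, was tested as the assay by genotype term over both assays. No gene passed by edgeR (background 0% of 15479 genes, where 2776 had an unadjusted p under 0.05 and DESeq2 called 766), and 0 of the 9 passed, with 4 of them at an unadjusted p under 0.05. DESeq2 called 2 of the 9, Slc12a1 and Umod. The log2 change in TE was 0.92 for Slc12a1 (SE 0.18, adjusted p = 0.10), 0.80 for Scnn1g (SE 0.26, adjusted p = 0.15), 0.77 for Umod (SE 0.22, adjusted p = 0.13) and -0.57 for Aqp2 (SE 0.23, adjusted p = 0.21), all by edgeR. The median was 0.39 for the 9 genes and -0.12 for all coding genes. Over 16 alternatives the change of Slc12a1 stayed between 0.82 and 1.06. The RNA libraries that enter this ratio include KO libraries 2 and 3, whose reads lay nearest the 3′ end, and the part of read position in these values was not tested. Without those 2 RNA libraries no member passed.

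Disome reads of Slc12a1 were also higher in every KO library, but gave no call by edgeR. None of the 9 genes passed, against 0.154% of genes called. DESeq2 called 2 of the 9, Slc12a1 and Umod, where it called 17 of 7773 genes, and 3 of the 9 had an unadjusted p under 0.05, as did 11.2% of all genes. Slc12a1 had 283, 237 and 193 CPM of disome reads in WT and 405, 405 and 390 CPM in KO, without overlap (log2FC 0.73, SE 0.16, adjusted p = 0.060, edgeR). Umod had 416, 321 and 334 CPM in WT and 552, 500 and 533 CPM in KO (log2FC 0.55, SE 0.16, adjusted p = 0.17), and Aqp3 had 40.8, 24.5 and 25.9 CPM in WT and 48.2, 42.5 and 45.2 CPM in KO (0.54, SE 0.20, adjusted p = 0.31). These 3 were the members without overlap, where 17.0% of genes tested did not overlap. Slc12a3 disome reads, at 448, 543 and 424 CPM in WT and 522, 524 and 515 CPM in KO, overlapped. Relative to footprints, disome reads of the 9 genes changed by -0.63 (Scnn1b, 14 to 43 disome reads in all libraries but WT library 3, which had 8) to 0.24 (Aqp2) on the log2 scale. None of the 9 passed by edgeR or DESeq2, none had an unadjusted p under 0.05, and the background was 0% of 12242 genes, where 741 had an unadjusted p under 0.05 and DESeq2 called 0.

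Across all kidney genes the footprint change moved with protein length. The median log2FC in RPF was -0.19 over 3600 genes encoding fewer than 300 amino acids and 0.23 over 1912 genes encoding at least 1000, of which 21.4% were called higher. Of the 9 genes, the longest, Slc12a1, had the largest rise and the shortest, Aqp2, the lowest value. Spearman's rho of length and RPF fold change was 0.68 over the 9 genes, which share libraries, and 0.42 over 13454 genes. Against genes of like length, Slc12a1 lay 0.60 above the median of its class (97.0th percentile), Aqp3 0.51 above (95.8th) and Scnn1g 0.37 above (91.0th). Slc12a3, with a fold change of 0.42, lay 0.19 above the median of long proteins (71.3th percentile), Aqp2 lay at -0.15 from its own class (26.6th), and Scnn1a lay at the median of its class (49.5th).

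The count table also lists partial transcripts of these genes, whose reads, set against those of the full transcript, show where along the mRNA the reads lay. The 5′ partial transcript of Umod (chromosome 7, 119476980 to 119479107, 3 exons, 759 bases) carried 3.97%, 2.73% and 7.58% of the full transcript's RNA reads in WT and 1.93%, 0.0751% and 0.257% in KO. KO libraries 2 and 3 were lowest. In Ribo-seq the same region carried 34.0%, 33.6% and 34.8% in WT and 31.8%, 31.7% and 30.6% in KO. For Slc12a3 the 5′ partial transcript, which keeps introns, carried 12.6%, 8.90% and 25.2% of RNA reads in WT and 9.05%, 1.18% and 1.83% in KO, but 67.9% ± 1.93 and 68.6% ± 2.83 of footprints (SD, n = 3). For Kcnj1 a transcript with the coding exon but little of the 3′ UTR carried 98.9% ± 0.0649 of footprints in WT (SD) and 9.54%, 5.55% and 22.2% of RNA reads, so most Kcnj1 RNA reads lay outside the bases it shares with the full transcript, which are mainly the coding exon.

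The footprint shares of 5′ partial transcripts lay lower in every KO library than in any WT library for 3 of the 4 genes examined. The share of all genes without such overlap is not given here, so this count does not set these genes apart. They were 34.1% ± 0.608 against 31.4% ± 0.706 for Umod, 22.9% ± 1.25 against 19.8% ± 1.10 for Slc12a1, and 22.9% ± 0.107 against 19.7% ± 0.757 for Scnn1a (SD, n = 3, exact two-sided permutation p = 0.10 each, the smallest possible). Over all 2661 genes that could be compared, the median log2 ratio of 5′ to 3′ partial transcripts in Ribo-seq lay between -0.29 and -0.24 in WT libraries and between -0.54 and -0.41 in KO libraries, so the KO libraries as a whole lay lower, and the part of this in the footprint changes was not tested. In disome-seq, where that median overlapped between genotypes (-0.19 to -0.11 and -0.18 to -0.08), the 5′ part of Slc12a1 carried 43.1%, 43.2% and 40.7% of its disome reads in WT and 34.9%, 37.3% and 34.7% in KO. Slc12a3 lay the other way, with 46.2% ± 3.34 in WT and 52.5% ± 1.71 in KO for its 5′ part and 24.8% ± 2.11 against 19.8% ± 0.346 for its 3′ part (SD, n = 3, exact permutation p = 0.10 each).

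The 3 Slc12a1 transcripts with the exons shown above had nearly equal counts, since a read on a shared exon entered each of them. In Ribo-seq they differed by 0.442% to 1.38% of their reads. The transcripts with the middle and the downstream exon are alike but for that exon and a few bases at the 3′ end, so their counts differ only by reads on those bases. The downstream transcript had 3 and 29 fewer footprints than the middle one in WT libraries 1 and 2 and 11 more in WT library 3, against 42, 118 and 99 more in the KO libraries. That is -0.143% ± 0.548 in WT and 0.710% ± 0.202 in KO (SD, n = 3) of the middle transcript's footprints, with no overlap. In RNA the differences were -0.235% ± 0.0591 and -0.109% ± 0.0832 (SD). The level of each isoform cannot be read from these differences, and which of the exons a read with several matches belonged to was not tested.

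Other genes of the same segments moved in both directions in footprints. For each list below, the share over all genes tested was 9.88% called in footprints, and 5.97% called higher. Of 13 thick ascending limb genes tested, 2 rose and 2 fell by edgeR. DESeq2 called 4, and 11 had an unadjusted p under 0.05 in either direction, as did 29.0% of all genes. Slc12a1 rose, as did Egf, which encodes the precursor of epidermal growth factor (log2FC 0.91, SE 0.15, adjusted p = 0.007, edgeR). Ptger3, a prostaglandin E2 receptor (-0.70, adjusted p = 0.031), and Ppp1r1a, a protein phosphatase 1 inhibitor (-0.60, adjusted p = 0.017), fell. The median of the list was -0.03, beside -0.02 for all genes. Egf RNA had a log2FC of -0.72 (adjusted p = 0.31) and Ptger3 RNA -0.63 (adjusted p = 0.30). Of 13 distal convoluted and connecting tubule genes, Trpm6, the magnesium channel (0.83, adjusted p = 0.018), rose and Pvalb, which encodes parvalbumin (-0.64, adjusted p = 0.018), fell, with a median of 0.26. Of 14 principal cell genes 1 passed, Scnn1g (median 0.04). Of 12 intercalated cell genes 0 passed by edgeR, with 3 at an unadjusted p under 0.05 and 1 called by DESeq2 (median -0.17). Egf and Trpm6 code for 1217 and 2028 amino acids, and Ptger3, Ppp1r1a and Pvalb for 366, 171 and 110.

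Genes that regulate these transporters gave 1 call. Of 18 regulators in the aldosterone, vasopressin and WNK pathways, 1 passed in footprints: Nedd4l, the ubiquitin ligase that removes ENaC from the membrane (0.44, SE 0.11, adjusted p = 0.036, edgeR). Counts of 1 in 18 regulators, 1 in 14 principal cell genes and 1 in 10 papilla and thin limb genes were shares below or near the 9.88% of all genes called in footprints. The kinase gene Wnk4 had a log2FC of 0.25 (adjusted p = 0.20), and of the principal cell genes the vasopressin receptor gene Avpr2 had -0.19 (adjusted p = 0.46) and Hsd11b2, whose enzyme inactivates glucocorticoids, -0.14 (adjusted p = 0.49). Of 10 papilla and thin limb genes 1 rose, Slc5a3, the sodium/myo-inositol cotransporter (0.63, adjusted p = 0.023). In RNA 0 of 79 genes tested from these 6 lists passed by edgeR, 10 had an unadjusted p under 0.05 and DESeq2 called 0. The corresponding counts were 0, 11 and 3 of 62 in disome-seq and 0, 14 and 7 of 80 in translation efficiency. In disomes relative to footprints they were 0, 3 and 0 of 77. Over all genes, 14.1% had an unadjusted p under 0.05 in RNA and 11.2% in disome-seq. That share was 17.9% in translation efficiency and 6.05% in disomes relative to footprints.

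Some markers of other cells were also called in footprints, where 9.88% of all genes were called and 5.97% called higher. Of 14 proximal tubule genes 3 rose in footprints, Lrp2 (0.62, adjusted p = 0.046), Cubn (0.61, adjusted p = 0.033) and Slc4a4 (0.54, adjusted p = 0.031). These 3 encode 4660, 3623 and 1094 amino acids, and of all genes encoding at least 1000 amino acids 21.4% were called higher. In RNA 8 of 14 proximal tubule genes lay above 0 and their median log2FC was 0.13, beside 0.10 for all genes. Of the 14, 0 passed in RNA by edgeR, 4 had an unadjusted p under 0.05 and DESeq2 called 1. RNA log2FC was -0.20 for Lrp2, -0.38 for Cubn and 1.90 for Slc4a4 (SE 0.50, adjusted p = 0.29, edgeR). Slc4a4 RNA stood at 14.4 ± 4.31 CPM in WT and 53.7 ± 32.8 CPM in KO (SD, n = 3). Their summed RNA was 13749 to 15904 CPM in WT, against 17342 to 22094 CPM in KO, and Kap, an androgen-regulated proximal tubule gene, made up most of it (10147 ± 1133 and 14271 ± 1935 CPM, SD, n = 3). In footprints 1 of 8 endothelial genes rose, Pecam1 (0.57, adjusted p = 0.014), 2 of 8 stromal genes, Pdgfra (0.79, adjusted p = 0.009) and Pdgfrb (0.71, adjusted p = 0.020), and 2 of 6 immune genes tested, Ptprc (0.80, adjusted p = 0.030) and Cd74 (0.63, adjusted p = 0.018). Of 8 podocyte genes 0 passed in footprints by edgeR (2 at an unadjusted p under 0.05, 0 by DESeq2). In disomes 3 of the 8 were tested and 1 fell by edgeR, where 0.154% of all genes were called, and DESeq2 called 0. It was Nphs1, which encodes nephrin (-2.45, SE 0.51, adjusted p = 0.043, edgeR). Its disome level was low, at 8.55 ± 1.30 CPM in WT and 1.17 ± 1.60 CPM in KO (SD, n = 3). In RNA 0 of 8 podocyte genes passed by edgeR, with 3 at an unadjusted p under 0.05 and 2 called by DESeq2, but 0 of 8 lay above 0, the median was -0.56, and the summed RNA of 125 to 160 CPM in WT did not overlap the 88.9 to 100 CPM in KO. Of 8 endothelial genes 0 passed in RNA by edgeR or DESeq2 (4 at an unadjusted p under 0.05) and 1 lay above 0, with a median of -0.41 and sums of 144 to 178 CPM in WT and 135 to 139 CPM in KO. Of 8 stromal genes 0 passed in RNA by edgeR, with 4 at an unadjusted p under 0.05 and 1 called by DESeq2. In that list 1 gene lay above 0, with a median of -0.37. RNA log2FC of the endothelial and stromal genes called in footprints was -1.86 (Pecam1), -0.56 (Pdgfra) and -0.14 (Pdgfrb). That of the immune genes called in footprints was 0.41 (Ptprc) and 0.30 (Cd74). Of 5 blood genes and the 1 neuron gene tested of 7, 0 passed in footprints by edgeR, by DESeq2 or at an unadjusted p under 0.05. In disome-seq 0 of 4 blood genes tested passed by edgeR or DESeq2, but all 4, which encode hemoglobin chains, had an unadjusted p under 0.05, with log2FC values of -0.68 to -0.58, and the summed disome reads of the list were 262 to 294 CPM in WT and 147 to 214 CPM in KO. Summed footprints of the thick ascending limb genes lay at 1566 to 1804 CPM in WT libraries and 2343 to 2598 CPM in KO libraries. Most of that sum came from Umod (732 ± 45.9 and 960 ± 140 CPM), Egf (413 ± 40.9 and 776 ± 36.7 CPM) and Slc12a1 (SD, n = 3), while 6 of the 13 genes tested lay above 0. Their summed RNA, at 1716 to 2064 CPM in WT libraries, lay above the 1430 to 1694 CPM of KO libraries. The part of cell makeup in the footprint changes of the 9 genes was not tested.

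In brain, few members could be tested between genotypes. Scnn1a RNA had 94, 115 and 93 reads in WT and 108, 81 and 74 in KO, with a log2FC of -0.20 (SE 0.22, adjusted p = 0.90, edgeR), and Scnn1g had 7 to 12 and 5 to 17 reads (-0.02, SE 0.46). Neither passed, where 0.00636% of genes did, and neither had an unadjusted p under 0.05. In brain footprints Scnn1a alone was tested (-0.14, SE 0.24, adjusted p = 0.85), where 0.0346% of genes passed. DESeq2 called none of these. The tissue by genotype term, which asks whether kidney and brain responded differently, passed for 0 of 9 genes in RNA (background 0% of 16426 genes by edgeR, where 1275 had an unadjusted p under 0.05 and DESeq2 called 39) and in RPF (background 0.141%, where 1490 had an unadjusted p under 0.05 and DESeq2 called 74). Most members entered these fits through their kidney reads, and their brain reads were too few for the term to decide. The 0 of 9 therefore does not show that kidney and brain responded alike. For Scnn1a, the member with enough brain reads to weigh, the term was -0.08 in RNA (SE 0.24) and 0.27 in RPF (SE 0.28). In each assay 1 member had an unadjusted p under 0.05, Slc12a1 in RNA and Aqp3 in RPF, each on 10 or fewer reads per brain library, and DESeq2 called none.

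The genes whose profile was most like that of the members were found over the 18 kidney libraries, on log2 CPM centred within each assay, among 4436 other genes with at least 10 reads in every library. The mean profile used the 7 members that met this minimum. Pearson's r was 0.908 for Pcolce, 0.897 for Ctnnb1, 0.879 for Jup, 0.877 for Manba and 0.875 for Snx14. Of the members themselves, Slc12a1 (r = 0.85), Umod (0.76) and Aqp3 (0.72) followed the mean most closely, and Scnn1a (0.31) and Kcnj1 (0.32) least. Each member is part of the mean it was set against, which raises its r, so these r values are not comparable with those of other genes. These values describe points that share libraries and sequencing depth.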

How the data were processed

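RNA-seq, Ribo-seq and disome-seq libraries of mouse kidney and brain (30 libraries in all) were used. RNase I digestion preceded Ribo-seq and disome-seq. The authors selected poly(A) RNA with a directional kit for RNA-seq, trimmed reads with cutadapt, aligned them with STAR to mm10 with multimapping reads allowed, and counted them with featureCounts (Subread), as the labels' processing notes and the methods say. Versions of these tools were not given in the sources used here. They deposited whole-number read counts per transcript with no normalization. A second table, with 28 columns of values on human transcripts named with mouse titles, was not used.

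Transcripts were matched to GENCODE M21 on GRCm38 (141374 of 142604). Genes were tested over all transcripts with filterByExpr, TMM scaling within tissue and assay, and the quasi-likelihood test of edgeR (Benjamini-Hochberg, 0.05). Genotype was the only factor in fits of KO against WT within each tissue and assay. Tissue was the only factor in fits of WT kidney against WT brain. TE and disomes relative to footprints were assay by genotype terms, in fits that also held assay and genotype. The tissue by genotype term came from fits that also held tissue and genotype. The standard error was taken as the log2FC divided by the root of F. Background shares count 1 transcript per gene. CPM values are TMM-scaled. Counting intervals and floors cover counting error only. The fits were tested on simulated counts. In these data, isoforms share reads.

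The members and 13 gene lists (139 genes) were chosen with earlier results of these data known. The 9 members, Rpl41 and, of each list, up to 3 genes per kidney comparison that passed the test are named, with the 5 genes most like the mean member profile. Members and list genes named beside these, such as Avpr2, Hsd11b2, Wnk4 and Kap, were picked with their values in view. Alternatives were DESeq2, library totals, other filters, counts summed per gene, 1 transcript per gene, blocks and left-out libraries. R 4.3.3, edgeR 4.0.16, DESeq2 1.42.0, Python 3.11.15, scipy 1.17.1 and matplotlib 3.10.9 were used.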

Additional observations from a re-analysis of the deposited data

How the results depend on the processing

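Over all alternatives, 805 of 867 values of the 9 genes kept their direction and their side of the threshold, 37 changed sign, 17 newly passed and 8 no longer passed. The 805 include every comparison of WT kidney with WT brain, where differences were very large, and many values that never passed. The 8 lost calls were all in kidney footprints, 6 of 14 alternatives for Scnn1g and 2 of 14 for Slc12a1. In kidney footprints, where 2 of 9 genes passed, library totals alone and counts summed per gene gave 1, no filter beyond 1 count gave 6, and leaving out 1 library gave 0 (without KO 3) to 3 (without WT 2). Without KO Ribo-seq libraries 2 and 3, an alternative added after the data were seen, as was that without KO RNA-seq libraries 2 and 3, the count was 0. In disome-seq (0 of 9), DESeq2 and the replicate block gave 2 each, Slc12a1 (adjusted p = 0.003 and 0.005) and Umod (0.030 in both), and no filter gave 1. In TE (0 of 9), DESeq2 gave 2, counts summed per gene and 1 transcript per gene gave 1 each (Slc12a1, adjusted p = 0.047 and 0.033), and leaving out 1 replicate gave 0 to 3. The 3, without KO replicate 1, were Slc12a1 (adjusted p = 0.018), Scnn1g (0.022) and Umod (0.041). Same-numbered WT and KO libraries had correlated deviations of -0.42 to 0.45, so their numbers were not taken to pair them, and the replicate block changed no other call of the 9 genes.

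Signs changed for small effects. Counts summed per gene gave -0.03 for Slc12a3 RNA, 0.02 for Kcnj1 RPF and 0.07 for Scnn1a disomes, and no filter gave 0.00 for Kcnj1 RPF and -0.04 for Scnn1g disomes relative to RPF. DESeq2 and the replicate block both gave 0.01 for Scnn1a disomes. Without KO libraries 2 and 3 of the assay, RNA was -0.03 for Slc12a3, -0.06 for Aqp2 and 0.03 for Scnn1g, and RPF was -0.18 for Scnn1a. Leaving out single libraries moved RNA from -0.18 to 0.02 for Slc12a1, -0.23 to 0.23 for Aqp3 and -0.11 to 0.08 for Scnn1b, and Kcnj1 RPF from -0.08 to 0.04. It moved disomes from -0.84 to 0.55 for Aqp2, -0.07 to 0.15 for Scnn1a and -0.43 to 0.18 for Scnn1b. Disomes relative to RPF moved from -0.18 to 0.05 for Slc12a1, -0.53 to 0.78 for Aqp2, -0.26 to 0.00 for Scnn1a and -0.16 to 0.20 for Scnn1g. Scnn1g RNA in brain ranged from -0.24 to 0.21 and the tissue by genotype term of Scnn1a RNA from -0.18 to 0.03. The causes were not tested. Disome reads of the ENaC subunits and brain reads of most members were too few to show small differences.

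Over all transcripts, 7 passed in kidney RNA, 540 by DESeq2 and 12466 without KO library 1, none of them for the 9 genes. In RPF 5838 passed, 3533 by DESeq2, 9936 with no filter, 285 (without KO library 3) to 5843 without 1 library, and 22 without KO libraries 2 and 3. In disome-seq 70 passed, 278 with no filter and 252 with the replicate block. In TE 0 passed by edgeR (17404 at an unadjusted p under 0.05), 4483 by DESeq2, 11 with no filter and 12525 without KO replicate 1. Disomes relative to RPF had 0, 5 by DESeq2, 120 with no filter, 15 with the replicate block and 204 with a library pair block.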
